A study of Mus musculus with 6 samples.

Results

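Interferon-stimulated genes are the genes that cells switch on when interferon reaches them, and 39 of them were followed here in microglia with and without the transcription factor Bhlhe41. The 39 are textbook members of the type I interferon response, and the list was drawn up with earlier results of these data known. A gene was measured through every array probe whose transcript accession belongs to its symbol, which gave 51 probes for 37 of the 39 genes, out of 23462 named genes tested. The other two members, Mx1 and Mx2, had no probe matched in this way and were not analysed here. The cells were sorted as CD45low CD11b+ Cx3cr1+ microglia from the brains of 3-month-old C57BL/6 mice, and 3 samples of each genotype were hybridised in 1 colour to arrays of a single slide. Controls were heterozygous, Bhlhe41 dTomato-Cre/+ (B41HET), and the other group was homozygous, Bhlhe41 dTomato-Cre/dTomato-Cre (B41KO). The allele carries a dTomato-2A-Cre-polyA cassette placed before the start codon of Bhlhe41, so that both groups make dTomato and Cre from the Bhlhe41 promoter, and the controls have 1 intact copy rather than 2. There was no wild-type group, and the labels speak of 3 mice per genotype where the Methods describe every sample as a pool of several mice, so that whether the spread between samples is one between mice or between pools is not settled.

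Type I interferons such as interferon beta bind a receptor made of Ifnar1 and Ifnar2, whose kinases Jak1 and Tyk2 phosphorylate STAT factors. The complex ISGF3, which holds Stat2 and Irf9, then binds the interferon-stimulated response element (ISRE) in promoters. The induced proteins sense foreign nucleic acid, cut viral RNA, block entry or translation, and feed back on the signal. Microglia express much of this program at a low level at rest and raise it after infection, injury and in old age.

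The promoters show how the response is written in these genes, and a few of them are printed here because their genes carry the results below. RefSeq promoters (GRCm38.p6, 250 bases before the start of the transcript to 50 after it) were at hand for 30 of the 39 members. The ISRE core was searched as GAAA, 2 bases of any kind and GAAA, on both strands. Of these 30 members, 17 held it in a promoter. Counted by promoter, it stood in 18 of their 36 (50%), beside 3.44% of 32851 promoters of all genes. The gamma-activated site, searched as TTC, 3 bases of any kind and GAA, stood in 7 of the 36 (19.4%) beside 8.3% of all promoters, and it can overlap an ISRE core. The E-box CACGTG, the motif that Bhlhe40 and Bhlhe41 are known to bind, stood in 0 of the 36 beside 7.15% of all promoters, which says only that these letters are not in these windows. The stretches below are the 170 bases before the start of Oas3, Oas1a, Isg15, Ifit3 and Herc6 and the first 30 bases of the Ifitm3 transcript, 5′ to 3′ on the strand of the gene, with ISRE cores in capitals. Oas3 and Ifitm3 are shown as the members that fell, Oas1a as a close relative of Oas3 that did not pass the test, Isg15 and Ifit3 as classical members, and Herc6 as the member with the lowest adjusted p among those that were higher in B41KO.
Oas3: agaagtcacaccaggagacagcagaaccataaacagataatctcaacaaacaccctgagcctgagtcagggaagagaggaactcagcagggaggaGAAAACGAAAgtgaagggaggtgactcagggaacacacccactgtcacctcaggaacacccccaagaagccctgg
Oas1a: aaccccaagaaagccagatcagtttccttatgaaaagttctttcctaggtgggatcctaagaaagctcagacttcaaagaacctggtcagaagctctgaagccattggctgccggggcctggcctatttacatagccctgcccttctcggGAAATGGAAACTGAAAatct
Isg15: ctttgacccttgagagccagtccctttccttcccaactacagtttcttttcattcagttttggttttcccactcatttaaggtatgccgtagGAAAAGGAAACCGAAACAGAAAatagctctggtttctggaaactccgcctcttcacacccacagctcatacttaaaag
Ifit3: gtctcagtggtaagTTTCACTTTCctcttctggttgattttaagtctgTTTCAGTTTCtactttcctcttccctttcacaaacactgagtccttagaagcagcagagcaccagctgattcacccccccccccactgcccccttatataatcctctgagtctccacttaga
Herc6: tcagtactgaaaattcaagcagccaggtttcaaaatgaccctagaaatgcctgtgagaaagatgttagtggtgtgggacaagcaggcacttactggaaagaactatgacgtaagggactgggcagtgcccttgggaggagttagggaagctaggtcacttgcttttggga
Ifitm3: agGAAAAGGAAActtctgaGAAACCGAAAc
The stretches lie at chr5:120777660-120777829 on the minus strand (Oas3), chr5:120907526-120907695 on the minus strand (Oas1a), chr4:156200819-156200988 on the minus strand (Isg15), chr19:34583359-34583528 on the plus strand (Ifit3), chr6:57580822-57580991 on the plus strand (Herc6) and chr7:141010715-141010744 on the minus strand (Ifitm3). Oas3 has a single core that begins 75 bases before the start, whereas Oas1a has overlapping cores from 20 bases before it and Isg15 a run of 3 from 78 bases before it. Ifit3 carries cores on the opposite strand, 156 and 122 bases before the start. Ifitm3 has its cores just after the start, at bases 3 and 20 of the transcript, and Herc6 has no match in its window.

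The targeted transcript was read first. The brightest Bhlhe41 probe gave 7.95, 7.87 and 7.65 in B41HET and 8.56, 7.84 and 8.21 in B41KO (log2 signal), a log2 fold change of 0.38 with an adjusted p of 0.330. The dimmer Bhlhe41 probe gave 0.33 (adjusted p = 0.204), with all B41KO samples above. The allele is described as an insertion and not as a deletion, and where the probes lie relative to it was not determined, so this transcript gives no check of the labels, and they were taken as they stand. Across the 6 arrays 70.1% to 75.5% of probes were well above background and 0 spots were saturated. Precision is limited by the number of arrays. On the slide, row 1 held all B41HET arrays with B41KO replicate 1, and row 2 held the remaining B41KO arrays.

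Markers of other cell types moved with the genotype and are given before the results they may touch. All 12 microglia markers were well above background on every array, with a summed normalized signal of 201951 to 221011 in B41HET and 194419 to 204918 in B41KO, and 1 of them, Fcrls, was called lower. Of 17 neutrophil and monocyte markers, 12 were called lower, whereas Mpo had a log2 fold change of 0.38 (adjusted p = 0.156) with all B41KO samples above. Their summed signal was 32886 to 36884 in B41HET and 6598 to 7057 in B41KO, and each of the 17 was well above background on some array. Of 11 border macrophage markers 5 were called lower (summed signal 2688 to 2881 in B41HET and 1870 to 2061 in B41KO). All 11 were fitted lower, 10 of them with all B41KO samples below. The dendritic cell list had 2 of 12 called lower (3522 to 3750 and 2850 to 3048), and the endothelial list 2 of 8, Ly6c1 and Pecam1, while the other 6 overlapped between the genotypes (1221 to 1334 and 485 to 519). The lymphocyte list had 2 of 13 called lower, Cd79a and Jchain (2258 to 2413 and 2555 to 2597). The neuron and glia list had 1 of 10 (23131 to 25082.5 and 24077 to 24967). The brightest probes carry a sum, so the median log2 fold change of each list is given as well. It was -2.22 for neutrophil and monocyte, -1.03 for border macrophage and -0.23 for dendritic cell markers. It was -0.07 for endothelial, 0.02 for lymphocyte, 0.18 for neuron and glia and -0.06 for microglia markers. Xcr1, Ms4a1, Flt1, Cdh5 and Syt1 were well above background on 0 arrays. The part of these cells in the falls of interferon-stimulated genes was not tested, and in sorted bulk samples fewer cells of a type and less RNA per cell cannot be told apart.

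Most interferon-stimulated genes differed little between the genotypes. A gene was called when its brightest probe had an adjusted p of 0.05 or less in limma, with Benjamini-Hochberg adjustment over 56601 probes, and its log2 fold change was at least 0.5 in either direction. Of the 37 measured members, 2 were called lower in B41KO, Oas3 and Ifitm3, and 0 were called higher. Over all genes tested 4.05% were called lower and 1.44% higher, so that the share of members called lower, 5.41%, was near the background. By single probes 3 of the 51 were called (5.88%), all lower, beside 5.09% of all probes. The median log2 fold change was -0.07 over the members and 0.01 over all genes, and the median absolute log2 fold change was 0.22 over the members and 0.19 over all genes. Of the members, 17 were fitted higher and 20 lower in B41KO.

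**Figure D1:**
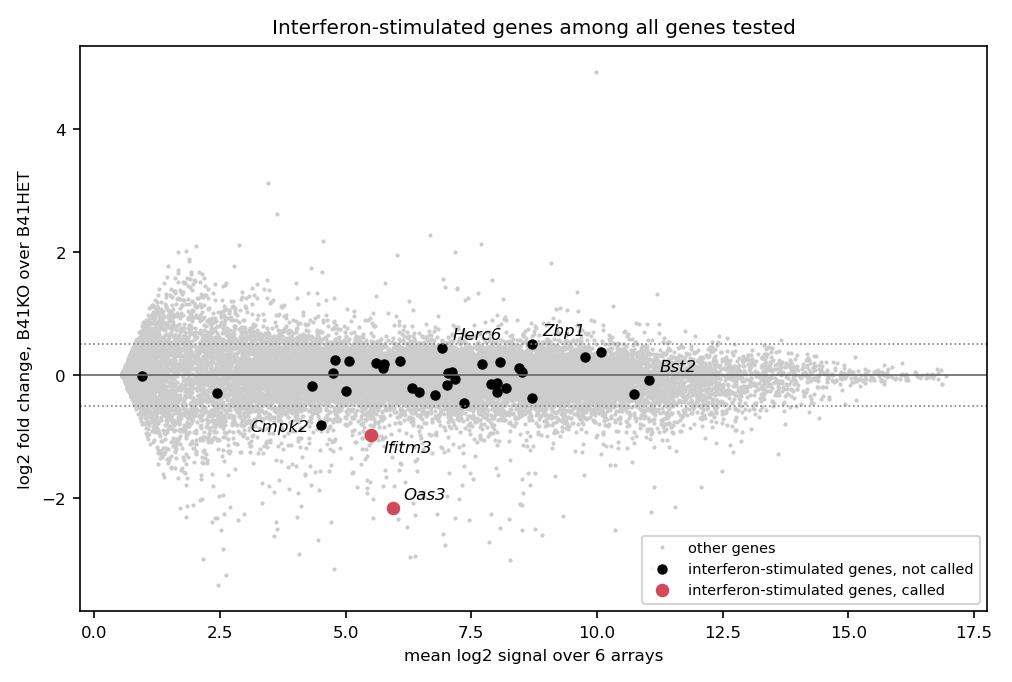
Each point is a gene by its brightest probe, with the mean log2 signal over the 6 arrays on the x axis and the log2 fold change of B41KO over B41HET on the y axis. Grey points are other genes, black and red points interferon-stimulated genes, and dotted lines mark 0.5 either way. Oas3 at -2.17 and Ifitm3 at -0.98 (red) lie below the lower line and passed the test, and most other members lie between the lines.

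The spread between samples allowed a bound on most of the others. Of the 35 members not called, Gbp3 and Cxcl10 were well above background on 0 arrays and have no such bound. Of the other 33, 19 had a 95% interval of the log2 fold change within 0.5 either way and 32 within 1, with Cmpk2 the exception. An unadjusted p under 0.05 was found for 13 of the 37 members (35.1%), 6 of them higher and 7 lower in B41KO, beside 25% of all genes. In 8 members all B41KO samples lay below all B41HET samples, and in 8 members all lay above (21.6% each), beside 18.1% and 14% of all genes. The median deviation of the members from their own means was 0.08, 0.01 and 0.02 in the B41HET samples and 0.04, 0.00 and -0.05 in the B41KO samples (log2), so that the samples of the genotypes overlapped.

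**Figure D2:**
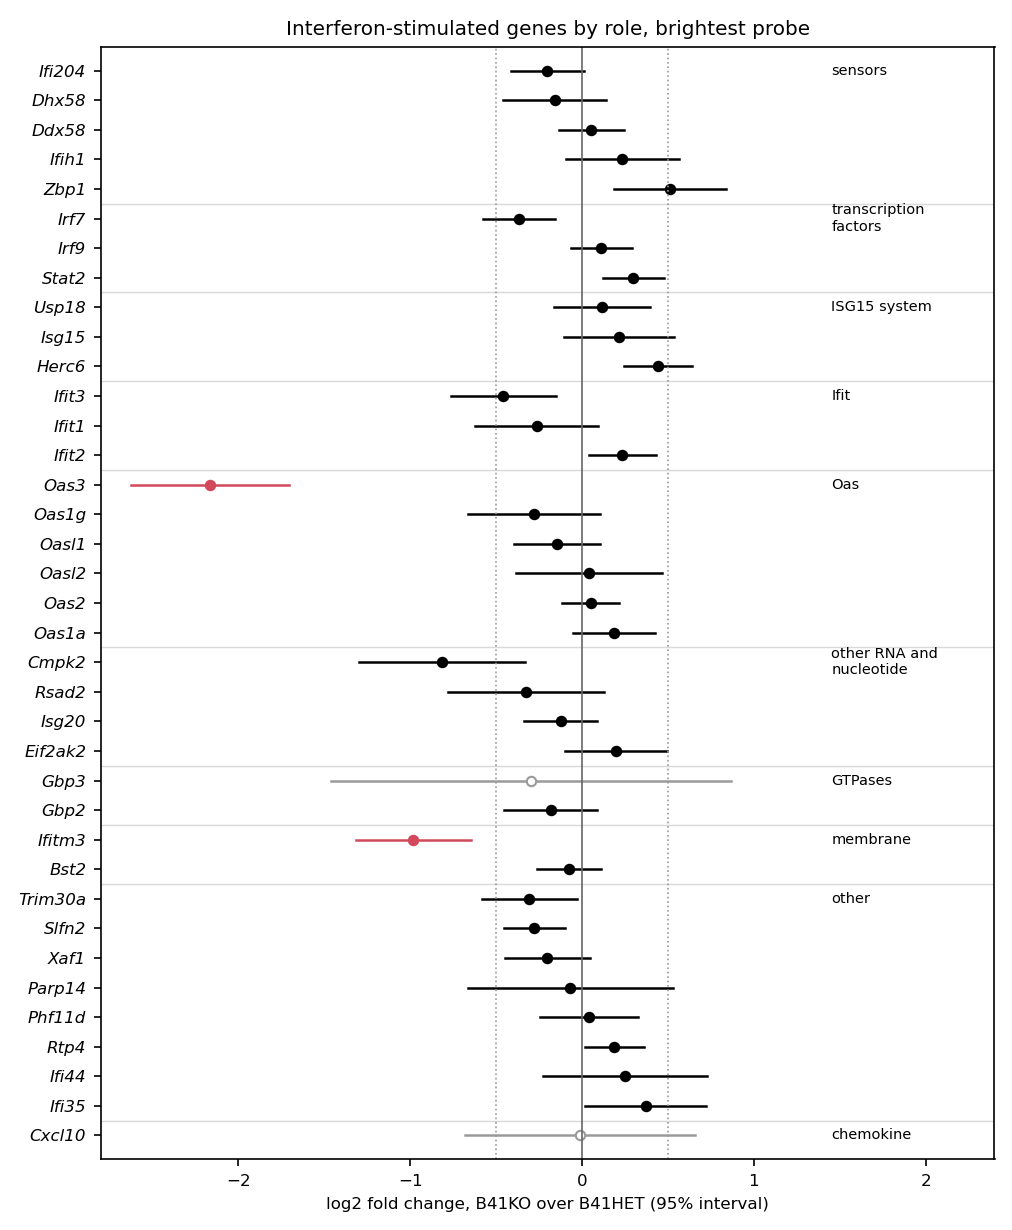
Log2 fold change of B41KO over B41HET for the 37 measured interferon-stimulated genes, grouped by role, as points with 95% intervals from limma. Red marks the called members Oas3 and Ifitm3, and open grey circles mark Gbp3 and Cxcl10, which were well above background on no array. Dotted lines mark 0.5 either way, and 19 of the 35 members not called have their interval inside them.

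The sensors are the proteins that recognise nucleic acid in the cytosol, and 0 of 5 were called. Zbp1, a sensor of Z-form nucleic acid that can start necroptosis, had the largest difference among them. It gave 8.36, 8.45 and 8.55 in B41HET and 8.73, 9.001 and 9.17 in B41KO (log2 signal). All B41KO samples were the higher ones, with a log2 fold change of 0.51 (SE 0.131) and an adjusted p of 0.0827. Its dimmer probe gave 0.16 with an adjusted p of 0.386, with overlapping samples. Zbp1 passed both thresholds once dim probes were filtered out (adjusted p = 0.0442) and with trend and robust variance (adjusted p = 0.0441). With slide row added as a block its log2 fold change was 0.28 (adjusted p = 0.425). Ddx58 (RIG-I), which binds viral RNA ends, had a log2 fold change of 0.05, and 4 probes that ranged from -0.22 to 0.31, the lowest with all B41KO samples below and the others with overlapping samples. Ifih1 (MDA5), which binds long double-stranded RNA, had 0.23 (adjusted p = 0.369), with all B41KO samples above. Dhx58 (LGP2), a regulator of Ddx58 and Ifih1, had -0.16 with overlapping samples. Ifi204, a DNA sensor, had -0.20 (adjusted p = 0.241), with all B41KO samples below.

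Of the transcription factors of the response, 0 of 3 were called. Irf7, the factor that amplifies interferon production, gave 8.99, 8.80 and 8.88 in B41HET and 8.59, 8.44 and 8.54 in B41KO. The B41KO samples were all lower, by a log2 fold change of -0.37 (SE 0.0844) with an adjusted p of 0.0642. Its other probe gave 0.09 with overlapping samples, so the probes of Irf7 disagreed in direction. Stat2, a subunit of ISGF3, gave 9.57, 9.66 and 9.58 in B41HET and 9.88, 9.86 and 9.97 in B41KO, a log2 fold change of 0.30 (adjusted p = 0.0702). The second Stat2 probe gave 0.32 (adjusted p = 0.0889), and on both probes every B41KO sample was above every B41HET sample. Irf9, which completes ISGF3, had 0.11 (adjusted p = 0.430) and 0.17 (adjusted p = 0.311) on its probes, both with all B41KO samples above.

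The ISG15 system tags proteins with the ubiquitin-like Isg15, and it held the member with the lowest adjusted p among those fitted higher. Herc6, the ligase that attaches Isg15 in mice, gave 6.81, 6.62 and 6.67 in B41HET and 7.09, 7.15 and 7.18 in B41KO. The groups did not overlap, and the log2 fold change of 0.44 (SE 0.0803) had an adjusted p of 0.0368 but missed the fold threshold. The adjusted p of Herc6 was 0.0671 to 0.124 with a sample left out and 0.235 with slide row added as a block. Isg15 itself gave 7.82, 7.91 and 8.16 in B41HET and 8.02, 8.21 and 8.32 in B41KO, with overlapping samples, a log2 fold change of 0.22 and an adjusted p of 0.390. Usp18, the protease that removes Isg15 and dampens the receptor, had 0.12.

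The Ifit proteins bind RNA without self marks at its end, and 0 of 3 were called. Ifit3 gave 7.59, 7.55 and 7.60 in B41HET and 7.30, 7.20 and 6.87 in B41KO. All B41KO samples were lower, with a log2 fold change of -0.46 (SE 0.124) and an adjusted p of 0.0953. Ifit2, its relative, lay the other way with all B41KO samples higher, at 0.23 (adjusted p = 0.153), and Ifit1 had -0.26 with overlapping samples.

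The Oas family, which makes 2-5A from ATP on double-stranded RNA and so activates RNase L, held the member with the largest difference. Oas3, which prefers long double-stranded RNA, was measured on a single probe. It gave 7.19, 7.16 and 6.70 in B41HET and 5.12, 4.73 and 4.70 in B41KO (log2 signal). It fell by 2.17 on the log2 scale (SE 0.185, 95% interval -2.63 to -1.71, adjusted p = 0.00575), which is 4.49-fold lower. The lowest B41HET sample was 1.58 above the highest B41KO sample, against SDs of 0.275 and 0.235. Counted from the most negative log2 fold change, Oas3 was at rank 46 of 23462 genes. A two-sided exact permutation test of 3 against 3 gave p = 0.1, the smallest it can give. Oas3 was called with each sample left out in turn, with log2 fold changes from -2.33 to -2.08 and adjusted p of 0.0173 to 0.0372.

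Oas3 was lower in B41KO in the alternatives run, by differing amounts. With normexp on the median spot signals and an offset of 50 the log2 fold change was -1.12 (adjusted p = 0.000754). With slide row added as a block, which sets B41KO replicate 1 against the 3 B41HET arrays of its row, it was -1.90 and the adjusted p was 0.0559. The summed neutrophil and monocyte, border macrophage, dendritic cell and endothelial markers given above were also lower in every B41KO sample. Their part in the fall of Oas3 was not tested.

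Oas2 had probes on both sides of the threshold. Its brightest probe gave 8.46, 8.54 and 8.45 in B41HET and 8.51, 8.57 and 8.53 in B41KO, a log2 fold change of 0.05 (95% interval -0.11 to 0.22, adjusted p = 0.711), with overlapping samples. Its dimmer probe, designed on another Oas2 transcript, gave 5.97, 5.92 and 5.59 in B41HET and 4.71, 4.89 and 4.58 in B41KO. On that probe Oas2 fell by 1.096 on the log2 scale (SE 0.140, adjusted p = 0.0152), and the groups did not overlap. The dimmer probe was not called without B41HET replicate 1 (adjusted p = 0.0595), without B41HET replicate 2 (0.0707), without B41KO replicate 1 (0.0578) or without B41KO replicate 3 (0.0520). With normexp the dimmer probe gave -0.45 and with slide row added as a block an adjusted p of 0.118, each without a call. Which transcripts each probe detects was not tested.

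The other Oas members were not called. Oas1a, the family's typical enzyme, gave 5.56, 5.62 and 5.82 in B41HET and 5.80, 5.93 and 5.83 in B41KO, a log2 fold change of 0.19 (adjusted p = 0.322). Oas1g had -0.28, Oasl1 had -0.15, and Oasl2 had 0.04, each with overlapping samples. Since the Oas genes sit side by side on chromosome 5, the genes next to Oas3 in the RefSeq order were read too, a choice made after the values were seen. Of 22 genes with a probe in that order, 14 before and 8 after Oas3, 0 were called on their brightest probe. The lowest adjusted p among them was 0.0645. On these probes the 8 Oas genes among them ranged from -0.28 to 0.29, with a lowest adjusted p of 0.322. Oas2, which is next to Oas3, was called lower on its dimmer probe (-1.096, adjusted p = 0.0152). The contrast of Oas3 with Oas2 therefore depends on the probe.

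**Figure D3:**
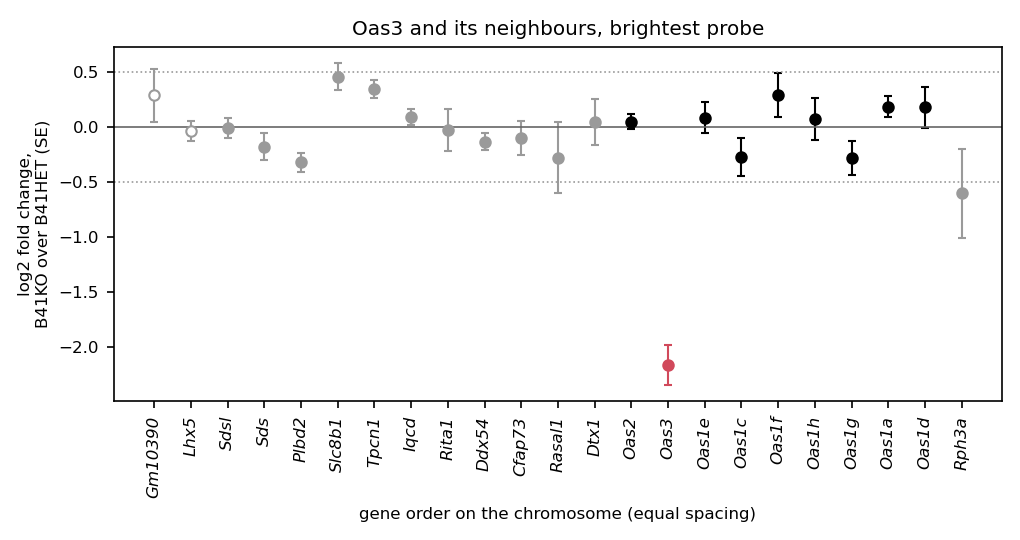
Log2 fold change of B41KO over B41HET with its SE for Oas3 (red) and 22 genes around it, by brightest probe. They stand in their RefSeq order with equal spacing, 14 before and 8 after Oas3. Black points are the other Oas genes, grey points other genes, and open circles genes well above background on no array. Oas3 stands at -2.17, and the 8 other Oas genes lie between -0.28 and 0.29. The dimmer Oas2 probe, which was called lower, is not shown.

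Among the other members that act on RNA and nucleotides, 0 of 4 were called. Cmpk2, a mitochondrial nucleotide kinase, gave 4.88, 4.60 and 5.29 in B41HET and 4.29, 4.06 and 3.97 in B41KO. The groups did not overlap, and the log2 fold change of -0.81 (SE 0.196) passed the fold threshold with an adjusted p of 0.0712. It was called once dim probes were filtered out (adjusted p = 0.0321), and its log2 fold change was -0.24 with normexp and -0.63 (adjusted p = 0.385) with slide row added as a block. It was not called with any sample left out. Its neighbour Rsad2 (viperin), which makes a chain-terminating nucleotide, had -0.32 on the brighter probe and 0.08 on the dimmer. Eif2ak2 (PKR), the kinase that stops translation, had 0.20 and Isg20, an exonuclease, had -0.12 with overlapping samples, and -0.34 (adjusted p = 0.200) with all B41KO samples below on its dimmer probe.

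Of the membrane proteins, Ifitm3 fell and Bst2 did not pass the test. Ifitm3, which blocks the fusion of entering viruses in endosomes, was also measured on a single probe. It gave 6.11, 6.004 and 5.85 in B41HET and 5.22, 5.01 and 4.79 in B41KO. It fell by 0.98 on the log2 scale (SE 0.136, 95% interval -1.32 to -0.64, adjusted p = 0.0189), which is 1.97-fold lower, and the lowest B41HET sample was 0.63 above the highest B41KO sample. Bst2 (tetherin), which holds budding virus at the cell surface, had signals of 10.90 to 11.11 over all samples and a log2 fold change of -0.08 (95% interval -0.26 to 0.11). The Ifitm3 call was lost without B41HET replicate 1 (adjusted p = 0.0706), B41HET replicate 2 (0.0805), B41HET replicate 3 (0.0503) or B41KO replicate 2 (0.0698), and with normexp, where the log2 fold change was -0.42 (adjusted p = 0.00566). With the slide row as a block it was -0.77 (adjusted p = 0.131). The summed neutrophil and monocyte, border macrophage, dendritic cell and endothelial markers were lower in the same samples. Their part in the fall of Ifitm3 was not tested.

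**Figure D4:**
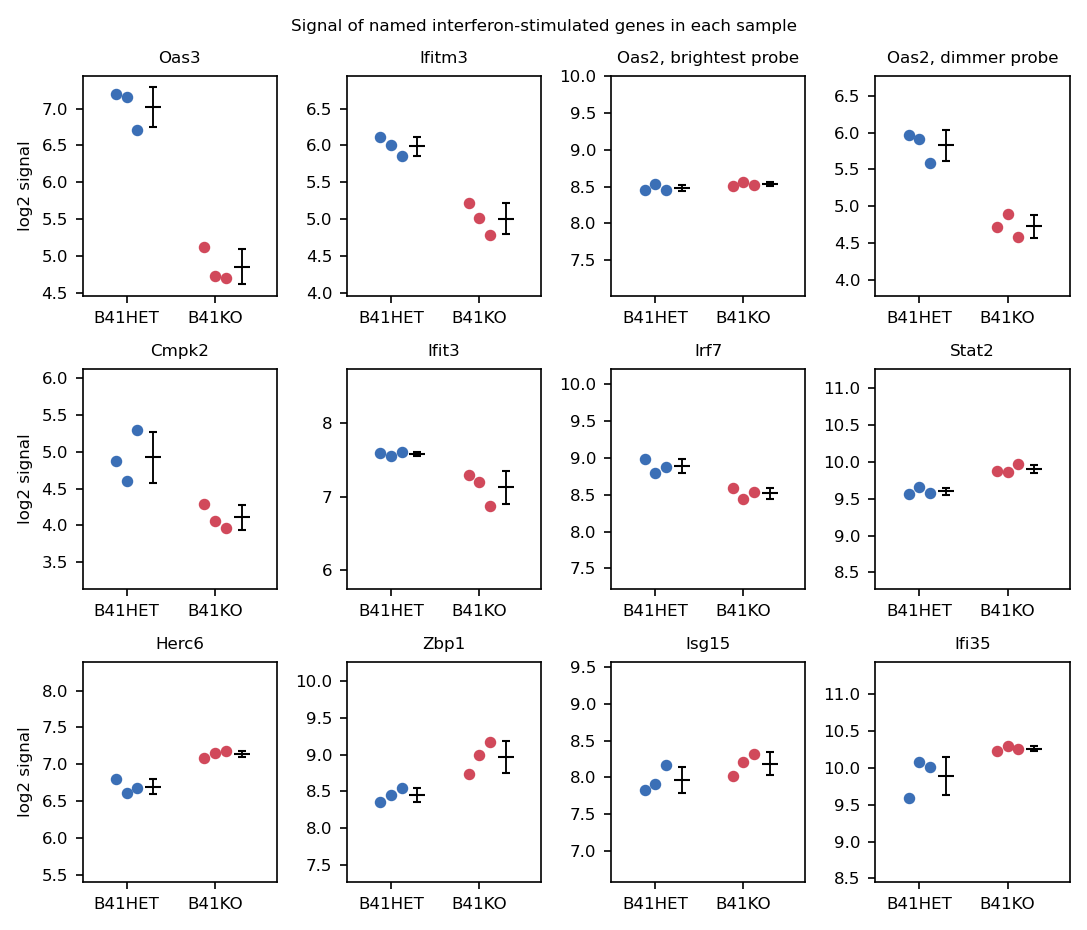
Log2 signal of 11 interferon-stimulated genes in the 3 B41HET (blue) and 3 B41KO (red) samples, by brightest probe, and by both probes for Oas2. Black bars are the mean and SD, and every panel spans 3 log2 units around its own centre, so that slopes can be compared but levels cannot. Oas3 drops from 6.70 to 7.19 in B41HET to 4.70 to 5.12 in B41KO, while Isg15 overlaps.

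The GTPases were measured through Gbp2 and Gbp3, which attack the membranes around pathogens. Gbp2 had a log2 fold change of -0.18 with overlapping samples. Gbp3 was well above background on 0 arrays, with signals of 2.80, 2.03 and 2.94 in B41HET and 2.89, 2.65 and 1.34 in B41KO, and no fold is given. The chemokine Cxcl10, which draws T cells, was likewise well above background on 0 arrays (1.19, 1.01 and 0.66 in B41HET and 0.71, 1.49 and 0.63 in B41KO).

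The remaining 8 members have varied or less defined roles, and 0 of them were called. Ifi35, a leucine zipper protein, had the largest difference among them, with 9.59, 10.08 and 10.01 in B41HET and 10.24, 10.30 and 10.25 in B41KO. All B41KO samples were above, by a log2 fold change of 0.37 (SE 0.141, adjusted p = 0.197), with 0.16 between the nearest samples of the groups. Its dimmer probe gave 0.19, also without overlap. Rtp4, a receptor chaperone, had 0.19, with all B41KO samples above. Slfn2, which keeps T cells quiescent, had -0.28 (adjusted p = 0.0841) and Trim30a, a restrainer of Toll-like receptor signals, had -0.31 (adjusted p = 0.177), both with all B41KO samples below. Ifi44 (0.25), Xaf1 (-0.20), Parp14 (-0.07) and Phf11d (0.04) had overlapping samples. The dimmer Parp14 probe gave 0.25 (adjusted p = 0.193), with all B41KO samples above and 0.03 between the nearest samples of the groups.

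Across the 12 members with several probes, 6 had probes that pointed in both directions (Ddx58, Irf7, Oas2, Oasl1, Parp14 and Rsad2) and 6 had probes of 1 sign. Oas2 was the 1 of the 12 with probes on both sides of the threshold. Members with an ISRE core in the promoter had a median log2 fold change of -0.18 (17 members) and those without it of 0.04 (13 members). For the gamma-activated site the medians lay the other way, at 0.19 with it (7 members) and -0.18 without it (23 members). These medians are a description and were not tested. Among the members with the ISRE core were Oas3 and Ifitm3, and also Stat2, Isg15, Oas1a and Bst2.

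The wider interferon pathway was read through 167 further genes in 7 lists, of which 153 had a probe. Of these, 15 were called lower (9.80%) and 2 higher (1.31%), beside 4.05% and 1.44% of all genes, and their median log2 fold change was -0.02. Of the 15 lower genes, 8 were further interferon-stimulated genes. With a sample left out 4 to 9 of the 153 were called, and with slide row added as a block 3. Calls over all genes fell as well, from 950 lower and 337 higher of 23462. They were 280 to 524 lower and 87 to 178 higher with a sample left out, and 118 and 84 with slide row.

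**Figure D5:**
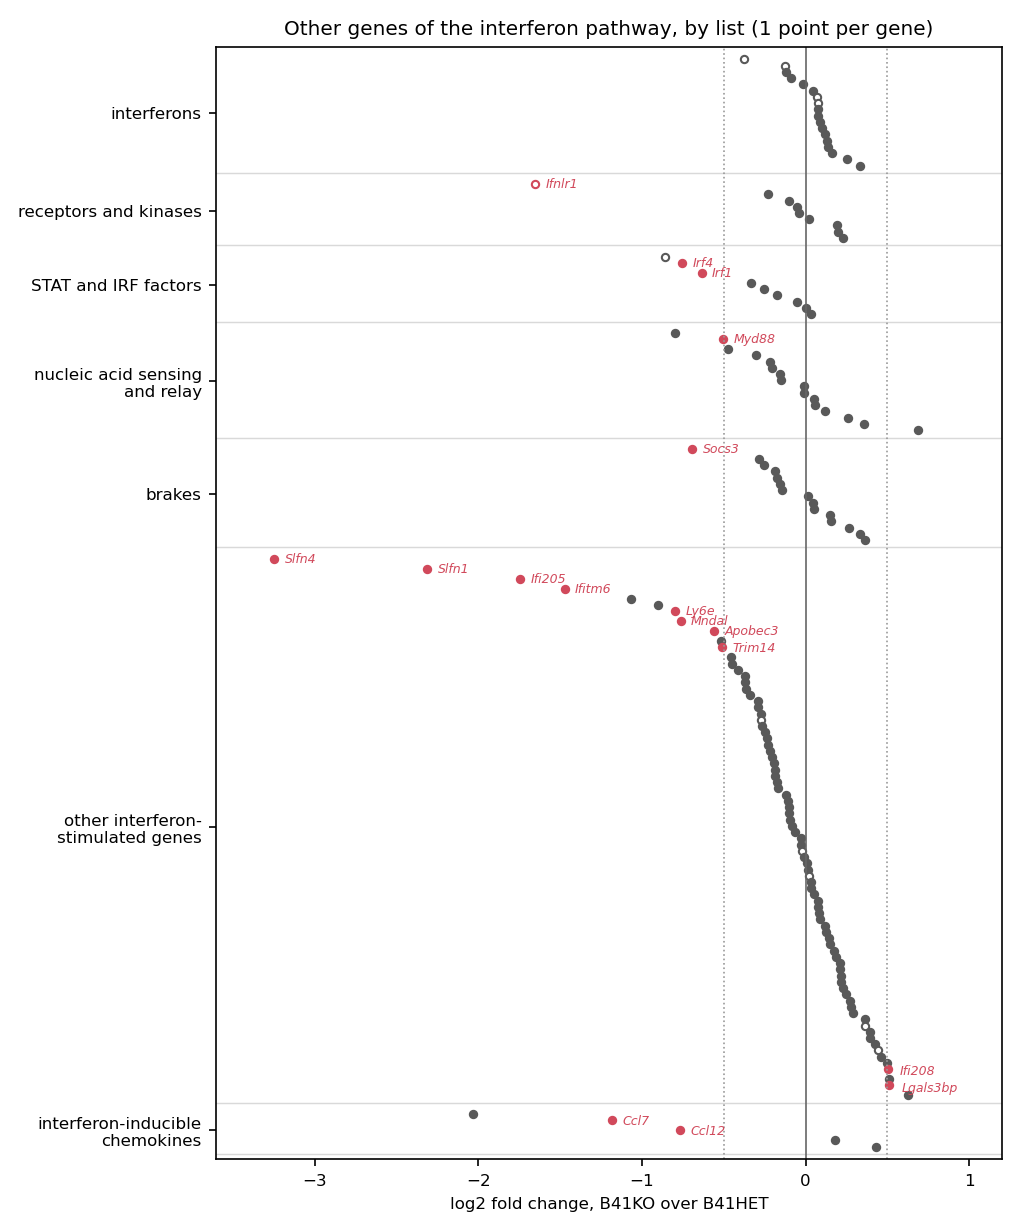
Log2 fold change of B41KO over B41HET for 153 further genes of the interferon pathway by brightest probe, ordered within 7 lists. Red points are called genes, open circles genes well above background on no array, and dotted lines mark 0.5 either way. The 18 interferons lie between -0.38 and 0.33 with none called, and the called genes are mostly lower.

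At the start of the pathway, 0 of 18 interferon genes were called, 4 of which were well above background on no array. Ifnb1, interferon beta, gave 6.40, 6.69 and 6.53 in B41HET and 6.57, 6.50 and 6.69 in B41KO, a log2 fold change of 0.04 (95% interval -0.21 to 0.30). Of 9 receptors and kinases, Ifnlr1, the receptor for interferon lambda, was called lower, but it was well above background on no array of either group and no fold is given. Ifnar1 had 0.19 (adjusted p = 0.385) on its brightest probe, whereas its dimmer probes gave -0.35 (adjusted p = 0.0405) and -0.53 (adjusted p = 0.0371), the last of which was called, so the direction for Ifnar1 depends on the probe. Ifnar2 had 0.02 on its brightest probe and 0.50 (adjusted p = 0.0648) on the other.

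Of 9 STAT and IRF factors, 2 fell. Irf1, a factor that interferon gamma and inflammatory signals induce, gave 12.51, 12.70 and 12.41 in B41HET and 12.03, 11.92 and 11.77 in B41KO, a fall by 0.64 on the log2 scale (adjusted p = 0.0340). Its dimmer probe gave -0.03 with overlapping samples. The Irf1 call was lost when any of the 6 samples was left out. Irf4, a factor of lymphocytes and alternatively activated macrophages, fell by 0.75 (adjusted p = 0.0377), and was likewise lost with any sample left out, and with normexp, where the log2 fold change was -0.48. Irf8, a lineage factor of microglia, had -0.05 (95% interval -0.22 to 0.12).

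Of 16 genes of nucleic acid sensing and relay, Myd88, the adaptor of most Toll-like receptors, fell by 0.51 (adjusted p = 0.0379), a call lost with any sample left out, with normexp (-0.39) and with arrays centred on their 75th percentile in place of quantile normalization (-0.49, adjusted p = 0.0546). Of 15 brakes on the pathway, Socs3, an inhibitor of receptor kinases, fell. It gave 11.25, 11.25 and 11.08 in B41HET and 10.55, 10.51 and 10.44 in B41KO, a log2 fold change of -0.69 (SE 0.0820, adjusted p = 0.0126), and was not called without B41HET replicate 1, B41HET replicate 2 or B41KO replicate 2, although the log2 fold change stayed between -0.75 and -0.64 in the alternatives run. With slide row added as a block Irf1, Irf4, Myd88 and Socs3 (adjusted p = 0.115) were not called.

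The 81 further interferon-stimulated genes with a probe held 8 calls lower and 2 higher. Slfn4, a Schlafen gene of myeloid cells, gave 4.28, 4.37 and 4.09 in B41HET and was not well above background in B41KO, which makes it at least 2.72-fold lower (adjusted p = 0.000423). That bound sets the B41HET mean against the dimmest signals that counted as well above background on each B41KO array. Ifi205, a nuclear protein of the Ifi200 family, gave 6.36, 6.26 and 6.43 in B41HET and 4.44, 4.71 and 4.66 in B41KO and fell by 1.75 on the log2 scale (adjusted p = 0.00209). Ifitm6, a relative of Ifitm3 in myeloid cells, gave 8.04, 8.12 and 8.09 in B41HET and 6.23, 6.69 and 6.91 in B41KO and fell by 1.47 (adjusted p = 0.0134).

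Ly6e, a surface protein that blocks coronavirus entry, gave 14.18, 14.16 and 14.04 in B41HET and 13.38, 13.39 and 13.20 in B41KO, and fell by 0.80 (adjusted p = 0.0105). Apobec3, a cytidine deaminase that restricts retroviruses, fell by 0.56 (adjusted p = 0.0177) and was called lower on each of its 3 probes, and Trim14, an adaptor of antiviral signalling, fell by 0.51 (adjusted p = 0.0183). Slfn1 and Mndal were also called lower, Slfn1 with 1 of 3 B41KO arrays well above background. The genes called higher were Lgals3bp, a secreted binder of galectins (0.51, adjusted p = 0.0236), and Ifi208 (0.50, adjusted p = 0.0280), named here because they are the 2 that rose. Both of these calls were lost with any sample left out. Slfn4 and Ifi205 were called with each sample left out, and Ly6e was not called without B41HET replicate 2. With slide row added as a block Slfn4, Ifi205 and Ifitm6 were called and the other named genes of this list, Ly6e (adjusted p = 0.103) among them, were not. The Ifitm6 call was lost when any single B41HET replicate or B41KO replicate 2 was left out, that of Trim14 when any single B41HET replicate, B41KO replicate 1 or B41KO replicate 3 was, and that of Apobec3 when B41HET replicate 1, B41HET replicate 2 or any single B41KO replicate was. The Slfn1 call was lost when any single B41HET replicate or B41KO replicate 1 was left out, and that of Mndal when any sample was and with the 75th percentile centring (-0.66, adjusted p = 0.0611). With normexp the log2 fold change of Slfn4 was -0.36, without a call, and that of Ifi205 was -0.77. The calls of Ifi208 (0.29), Lgals3bp (0.44), Mndal (-0.27), Slfn1 (-0.50, just short of the fold threshold) and Apobec3 (-0.49) were also lost with normexp. The Oas, Ifitm, Ifi200 and Schlafen genes are families of similar sequence, and whether a probe also reads a related gene was not tested.

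Among 5 interferon-inducible chemokines with a probe, 2 fell and 3 were not called. Ccl7, which draws monocytes, gave 7.32, 7.66 and 7.55 in B41HET and 6.36, 6.43 and 6.19 in B41KO and fell by 1.18 (adjusted p = 0.00893). Ccl12, a chemokine of the same cluster, gave 10.82, 10.71 and 10.68 in B41HET and 10.06, 9.96 and 9.89 in B41KO and fell by 0.77 (adjusted p = 0.0102). Ccl7 was called with each sample left out and had a log2 fold change of -0.76 with normexp, and Ccl12 was not called without B41HET replicate 2. With slide row added as a block neither was called (adjusted p = 0.0899 for Ccl7 and 0.0977 for Ccl12). Cxcl9, which draws T cells, gave 2.96, 2.95 and 3.47 in B41HET and was not well above background in B41KO, which puts it at least 1.25-fold lower, with an adjusted p of 0.0584. Ccl5 had 0.43 (adjusted p = 0.0917) and Ccl2 had 0.18 (adjusted p = 0.187), both with all B41KO samples above.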

How the data were processed

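Gene expression was measured on 6 one-colour Agilent SurePrint G3 Mouse arrays, 3 samples per genotype as the labels give them. The authors deposited scanner output from Feature Extraction 11.5.1.1, whose intensity values are background-subtracted within each array but without normalization across arrays. They also deposited log2 values, whose order of probes matched the scanner signal of each array and which were used as an alternative. Control spots were left out (59305 of 62976 spots remained), the log2 intensity was quantile normalized, 95 to 136 outlier spots per array were dropped on that array, and spots were averaged over 56605 probes. Genotype was fitted with limma 3.58.1 in R 4.3.3 on all 56601 probes with values, with Benjamini-Hochberg adjustment, and thresholds followed the Methods. Figures used matplotlib. The p-values measure the spread between these samples, which the labels call biological replicates and the Methods pools. Probes were named by accession in RefSeq (33767 of 56605), and the brightest probe stood for a gene. The fit was tested on simulated data.

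The members, pathway and marker lists and tests were chosen with earlier results of these data known. Values in every sample were planned for called members, for members with probes on both sides of the threshold and for the largest difference in each role, and for pathway genes the called genes, at most 6 per list, with Irf1, Irf8, Ifnar1, Ifnar2 and Ifnb1 whatever their result. A further gene of that rule is not reported here. Alternatives covered normalization, the authors' values, normexp with an offset of 50 on median signals, a filter for a signal well above background on 3 arrays or more, retained outlier spots, variance model, blocks, samples left out, fold threshold and probe choice. No coordinates of probes are given, since the arrays were designed on another build than GRCm38.p6.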

Additional observations from a re-analysis of the deposited data

How the results depend on the processing

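No called gene named here changed direction in the alternatives run on it. The number of members called was 2 with the 75th percentile shift, the authors' values and outlier spots kept, 3 with trend and robust variance, no fold threshold and either other rule for the probe, 1 with normexp, 4 with the filter on dim probes (Cmpk2, Ifitm3, Oas3 and Zbp1), 0 with the slide row as a block and 1 to 2 with a sample left out. Calls over all genes moved too. They were 950 lower and 337 higher of 23462 in the main fit, and 642 and 154 with normexp. The filter gave 1080 and 405 of 18397, and the slide row block 118 and 84 of 23462. Leaving a sample out gave 280 to 524 lower and 87 to 178 higher. Member probes called were 3, and 4 with trend and robust variance or no fold threshold, 5 with the filter, 1 with normexp, 0 with the slide row as a block and 1 to 2 with a sample left out. Pathway genes called were 17, and 20 with the authors' values, 21 with the filter or with trend and robust variance, 23 with no fold threshold or the probe of the lowest p, 17 with outlier spots kept, 15 with the 75th percentile shift, 14 with the mean over probes, 9 with normexp, 3 with the slide row as a block and 4 to 9 with a sample left out. The members' median log2 fold change of -0.07 was -0.0177 with the authors' values, -0.0218 with normexp, 0.0269 with the slide row as a block, -0.145 with the probe of the lowest p, and -0.0932 to 0.0552 with a sample left out (above 0 without B41KO replicate 3), so its sign is not settled. Members without overlap numbered 16 and 13 to 23 in the alternatives. Fewer samples enter where a sample is left out; for the other settings the cause was not tested.

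Samples share replicate numbers. Same-numbered samples correlated at 0.03, 0.01 and 0.05 in their deviations, beside -0.05 to 0.03 for the others. Values this low over all probes give no clear pairing, but with 3 samples per genotype they cannot exclude one. With the replicate block, 0 members, 0 member probes and 1 pathway gene were called, beside 19 genes lower and 2 higher of all 23462. The Oas3 adjusted p was then 0.0569 and that of Ifitm3 0.0686. Signal over background limits Gbp3 and Cxcl10 and 11 of the pathway genes, Ifnlr1 and 4 interferons among them, which were well above background on no array.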
